A study of Mus musculus with 3 samples.

Results

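The proteasome genes were followed on 3 Illumina BeadArrays of OS25, a line of mouse embryonic stem (ES) cells. They were chosen by symbol, as genes whose annotation starts with Psma to Psmg and a number, without the immunoproteasome genes Psmb8, Psmb9 and Psmb10. The pattern matched 38 of the 9678 genes with a named probe. Of these, 36 encode proteasome subunits, activators or assembly factors, and 2 only share the prefix: Psmc3ip, a meiotic recombination factor, and Psme3ip1, a protein that binds the activator encoded by Psme3. The group was 1 condition, OS25 cells labelled undifferentiated, with 3 biological replicates and 1 array each, grown with foetal calf serum, recombinant human leukaemia inhibitory factor and hygromycin. With 1 group there is no contrast to test. The values below therefore describe which of these genes were above background, and how far each differed between replicate cultures.

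The 26S proteasome degrades proteins tagged with ubiquitin. Its barrel, the 20S core particle, stacks rings of alpha subunits, which gate the entrance, on rings of beta subunits, of which those encoded by Psmb6, Psmb7 and Psmb5 cut proteins. The 19S regulatory particle caps the barrel, binds and unfolds substrates with a ring of ATPases (Psmc genes) and removes ubiquitin with its other subunits (Psmd genes). Alternative caps, the activators of the Psme genes, open the core without ubiquitin. Interferon induces Psme1 and Psme2 together with the immunoproteasome subunits that replace the cutting subunits. In human ES cells, high proteasome activity has been tied to the regulatory particle subunit PSMD11.

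Of the proteasome genes, Psme1 and Psme2 had the widest ranges between arrays, and their promoters are shown for that reason. Both genes lie on chromosome 14. Sequences are from RefSeq (GRCm38.p6) and run from 250 bases before to 50 bases after the annotated start, 5′ to 3′ on the gene's strand. Capitals mark the letters GAAANNGAAA, the core of the interferon-stimulated response element, on either strand. The first is chr14:55578244-55578543 (plus strand) and the second chr14:55591052-55591351 (minus strand).
Psme1: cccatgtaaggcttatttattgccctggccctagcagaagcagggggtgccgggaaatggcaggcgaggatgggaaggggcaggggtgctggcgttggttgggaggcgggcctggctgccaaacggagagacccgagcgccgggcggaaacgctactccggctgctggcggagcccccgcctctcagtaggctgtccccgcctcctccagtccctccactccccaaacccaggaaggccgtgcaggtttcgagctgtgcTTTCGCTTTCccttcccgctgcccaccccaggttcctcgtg
Psme2: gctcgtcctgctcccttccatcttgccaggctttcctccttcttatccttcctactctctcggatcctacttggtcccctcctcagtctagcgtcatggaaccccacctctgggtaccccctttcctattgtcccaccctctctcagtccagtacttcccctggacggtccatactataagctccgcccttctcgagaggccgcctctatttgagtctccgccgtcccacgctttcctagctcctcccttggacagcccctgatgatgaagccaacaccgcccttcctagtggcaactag
The Psme1 window holds 1 match, on the minus strand, whose first printed base is base 10 counted from the start site as 1. Neither of the 2 Psme2 windows in the table, whose starts lie 80 bases apart, holds a match, which says only that these letters are not in those windows. Of 32851 promoters of this length, 3.44% hold the match. Among the 32 promoters of the 30 proteasome genes that the table lists, 4 hold it: those of Psme1, Psmb3, Psmd4 and Psmd9. None of the 3 immunoproteasome promoters holds it. The letters TTCNNNGAA, the gamma-activated site, were in 8.30% of all promoters, in the promoters of Psmd2 and Psmg1 among the proteasome genes, and in no promoter of an activator. Of the immunoproteasome promoters, that of Psmb8 holds it.

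The cutting subunit genes Psmb5 and Psmb6 were both higher on replicate 1, and each promoter holds the letters TGACNNNGC, the core of the antioxidant response element through which NFE2L1 raises proteasome genes. They are shown with 20 bases on each side, the match in capitals, on the gene's strand: chr14:54618014-54618062 (minus strand) and chr11:70525328-70525376 (plus strand).
Psmb5: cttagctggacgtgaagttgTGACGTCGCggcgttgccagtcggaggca
Psmb6: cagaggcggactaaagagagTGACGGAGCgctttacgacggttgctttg
The match starts 47 bases before the start site of Psmb5 and 9 bases before that of Psmb6. It is in 12.4% of all promoters and in 5 of the 32 proteasome promoters (15.6%), a share near that of all promoters. The others are Psmd9, Psmd12 and Psme4. Psme4 was lowest on replicate 1, and Psmd9 and Psmd12 were highest there. Their ranges were 0.12 and 0.11 on the brighter probes, and 0.61 and 0.40 on the dimmer ones. Psmb5 and Psmb6 were picked for display after their values were seen. A match is a description of the letters. It shows neither binding nor use of the site.

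The arrays differed in ways that touch every result here. Median intensity was between 74.9 and 80.7, and between 14515 and 15865 of 45281 probes were above background. Across the 13777 probes above background on all arrays, which are not independent replicates, Pearson's r was 0.990 between replicates 2 and 3, and 0.949 and 0.951 between replicate 1 and those. Of 16 ES cell markers, 6 had a named probe and 4 were detected (Klf2, Klf4, Klf5 and Tbx3). Zfp42 was above background on replicate 1 alone and Tfcp2l1 on no array. The other 10, Pou5f1, Nanog and Sox2 among them, had no named probe. Whether their probes were below background or only lacked a name was not tested. Of 12 fibroblast markers, 9 had a named probe and 7 were detected, with Col1a1 at 11.95, 11.99 and 11.76 on replicates 1, 2 and 3. Others set replicate 1 apart in opposite directions. Dcn was at 12.28, 6.77 and 5.42 (not above background on replicate 3) and Pdgfra at 9.59, 6.07 and 5.84, both highest on replicate 1. Thy1 (6.81, 9.85 and 9.49), S100a4 (6.81, 8.34 and 8.24) and Vim (12.19, 13.43 and 13.40) were lowest there. The ES cell markers Klf4 (6.48, 8.08 and 7.86) and Klf5 (8.59, 9.92 and 9.70) were lowest on replicate 1 too. Tbx3 (8.32, 7.83 and 8.02) was highest on replicate 1, as were Zfp42 and Tfcp2l1, which were not detected. Klf2 (7.67, 7.54 and 7.72) was highest on replicate 3. The label of undifferentiated ES cells therefore rests on few markers here. The intensity summed over the fibroblast list was 14949, 16813 and 15611 on replicates 1, 2 and 3, a sum in which those opposite differences offset each other. Over the ES cell list it was 1077, 1709 and 1595, lowest on replicate 1 as were Klf4 and Klf5 but not Tbx3 and Klf2. The part of cell composition in the results below was not tested. No thymus epithelium, male germ cell or blood marker had a named probe. In bulk RNA, fewer cells of a type and less RNA per cell cannot be told apart.

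Nearly every proteasome gene with a named probe was detected. A gene was called detected where any of its probes had a detection p, which sets the probe against the negative control beads of its array, under 0.01 on all 3 arrays. This held for 35 of the 36 proteasome genes (97.2%), against 82.2% of all genes with a named probe. That background is high because names were used only for probes in the authors' processed table. No probe outside that table was above background on any array. A gene with only dim probes could thus lack a name, which raises the share of the proteasome genes in the same way. At probe level, 54 of 57 proteasome probes were above background on all arrays. The exception among genes was Psmd6, a scaffold subunit of the regulatory particle lid, which has 1 probe (ILMN_1241910). Its detection p was 0.00107, 0.0203 and 0.0395 on replicates 1, 2 and 3, so it was above background on replicate 1 alone. The other dim probes were second probes of Psmd2 and Psmd9, each of which had another probe above background on every array.

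A further 9 proteasome genes had no named probe: the alpha subunits Psma1, Psma3 and Psma6, the ATPase Psmc6, the lid subunit Psmd3, the regulator Psmf1, the assembly chaperone Psmg4, and the forms of testis (Psma8) and thymus (Psmb11). They were not analysed here, and whether their probes were below background or only lacked a name was not tested. The listed complement was thus 4 of 7 alpha, 7 of 7 beta, 5 of 6 ATPase and 10 of 11 other regulatory particle genes.

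Levels are given as normalised log2 intensity, and no level is set against that of another gene, since probes differ in brightness. Most of these genes differed little between the replicates. The range over the 3 arrays, the highest minus the lowest log2 value, was under 0.5 for 29 of the 35 detected genes (82.9%), against 60.9% of all 7955 detected genes and 69.2% of the 1751 with a mean of 10 or more, a background chosen after the values were seen because dim probes vary more. It was over 1, a 2-fold difference, for 2 genes, Psme1 and Psme2 (5.71%), against 10.1% of all detected genes and 6.40% of the brighter ones. Between these limits lay Psmb6, Psmd2, Psmd5 and Psmg2. The median SD over arrays was 0.146 log2 units for the proteasome genes, 0.214 for all detected genes and 0.186 for the brighter ones. Without replicate 1 it was 0.0572 for the proteasome genes and 0.0971 for all detected genes, and without normalisation between arrays 0.239 and 0.309. The share over 2-fold is thus near the background, and both genes that make it up are activators.

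**Figure D1:**
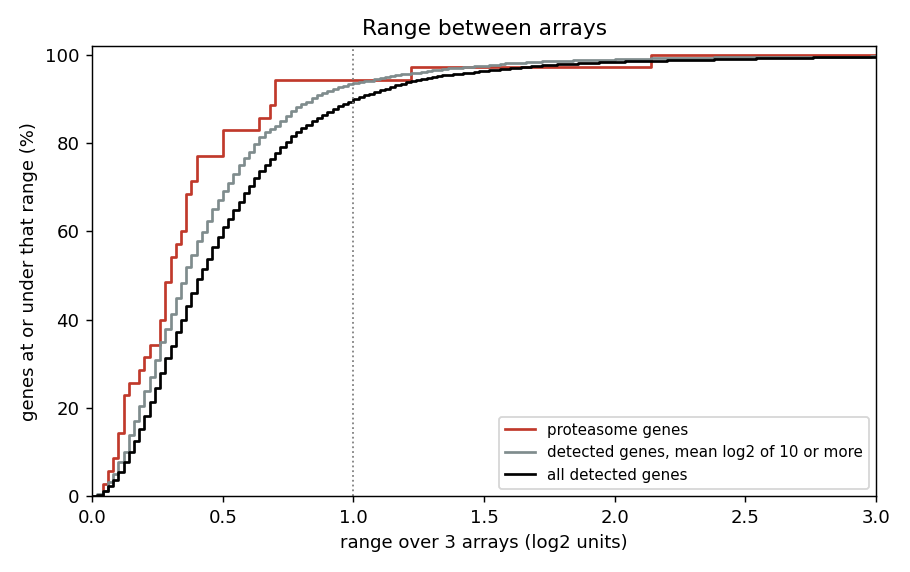
Share of genes (vertical axis, percent) at or under each range between the 3 arrays (horizontal axis, log2 units), for the 35 detected proteasome genes, all 7955 detected genes and the 1751 with a mean of 10 or more. The proteasome curve lies above the others at a range of 0.5 (82.9% against 60.9% and 69.2%) and meets the brighter genes near the dotted line at 1 (2-fold).

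The alpha ring genes, whose products form the gate of the core, had a median SD over arrays of 0.08, below the 0.146 of all proteasome genes. Psma2 stood at 13.36, 13.29 and 13.38 on replicates 1, 2 and 3 (mean 13.34 ± 0.04, SD, n = 3). Psma4 stood at 12.07, 12.03 and 12.11, the narrowest range of the 4 alpha genes (0.08). Psma5 stood at 12.89, 12.81 and 13.09, the widest (0.28, or 1.22-fold). Psma7 was at 12.34, 12.13 and 12.17, and its other probe also had its lowest value on replicate 2. Replicate 2 was the lowest array for all 4 alpha genes, by small amounts.

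Among the beta ring genes, 6 of 7 were highest on replicate 1, against 43.3% of all detected genes. Of the cutting subunits, Psmb6, which carries the caspase-like activity, was at 13.14, 12.46 and 12.45 (12.69 ± 0.40, SD, n = 3). Replicate 1 was 1.61-fold above the lowest array, and replicates 2 and 3 were nearly equal. Its second probe, at 12.76, 11.87 and 12.06, was also highest on replicate 1 but was lowest on replicate 2, with a range of 0.88. Psmb5, with the chymotrypsin-like activity that proteasome inhibitor drugs block, was at 10.33, 9.84 and 9.84 (10.01 ± 0.28, SD, n = 3), again with replicate 1 apart and the others together. Psmb7, with the trypsin-like activity, was at 12.48, 12.53 and 12.59 (12.53 ± 0.06, SD, n = 3), with no array apart. Of its 4 probes, 3 were lowest on replicate 1 and 1 highest there, all within 0.21 log2 units.

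Of the structural beta subunits, Psmb2 was at 12.85, 12.78 and 12.80, the narrowest range of the ring (0.06), with the same highest and lowest arrays on its second probe. Psmb3 was at 13.20, 12.81 and 13.02, and Psmb4, part of which guides assembly of the half-barrel, was at 13.57, 13.45 and 13.54. Psmb1 was at 12.71, 12.48 and 12.47. In each of these genes the highest array was replicate 1, and the differences from the other arrays were under 1.32-fold.

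The ATPase ring, which unfolds substrates and threads them into the core, showed no common order of arrays. Psmc5 had the widest range, at 11.45, 11.08 and 11.23 (0.37), with the same order on its second probe. Psmc2 had the narrowest, at 13.16, 12.99 and 13.08 (0.17). Its dimmer probe, at 7.15, 6.78 and 6.61, had a range of 0.54 and was lowest on replicate 3. On their brighter probes, Psmc5 and Psmc2 were lowest on replicate 2. So were Psmc3 (11.39, 11.32 and 11.58) and Psmc4 (11.61, 11.35 and 11.42). Psmc1 went another way, at 10.44, 10.68 and 10.77, with replicate 1 lowest.

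The other regulatory particle subunits spread in both directions. Psmd1, a large scaffold of the base, was at 13.00, 13.31 and 13.35, and replicate 1 was the lowest array on all 3 of its probes. Psmd4, a ubiquitin receptor, was at 12.55, 12.83 and 12.91, and Psmd13, a lid subunit, at 11.15, 11.33 and 11.44. These 3 genes were lowest on replicate 1. Psmd2, the other large scaffold of the base, had the widest range of the subgroup and was highest on replicate 1 and lowest on replicate 2, at 7.09, 6.39 and 6.76 (6.75 ± 0.35, SD, n = 3). Its second probe had the same highest and lowest arrays but was not above background on replicate 2. Psmd14, which encodes the deubiquitinase that strips ubiquitin from substrates, was at 9.251, 8.996 and 9.066.

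The lid subunit Psmd7, the partner of that deubiquitinase, had the narrowest range of all proteasome genes, at 11.31, 11.27 and 11.30 (0.04). Its 2 dimmer probes did not share that flatness, with ranges of 0.35 and 0.61 and replicate 3 highest. Psmd11, the subunit tied to proteasome activity in human ES cells, was at 9.31, 9.16 and 9.48 (9.32 ± 0.16, SD, n = 3), with no array far from the rest. Psmd8 was at 11.23, 11.49 and 11.22 and was the only regulatory particle gene highest on replicate 2. Psmd12 was at 11.35, 11.25 and 11.24.

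**Figure D2:**
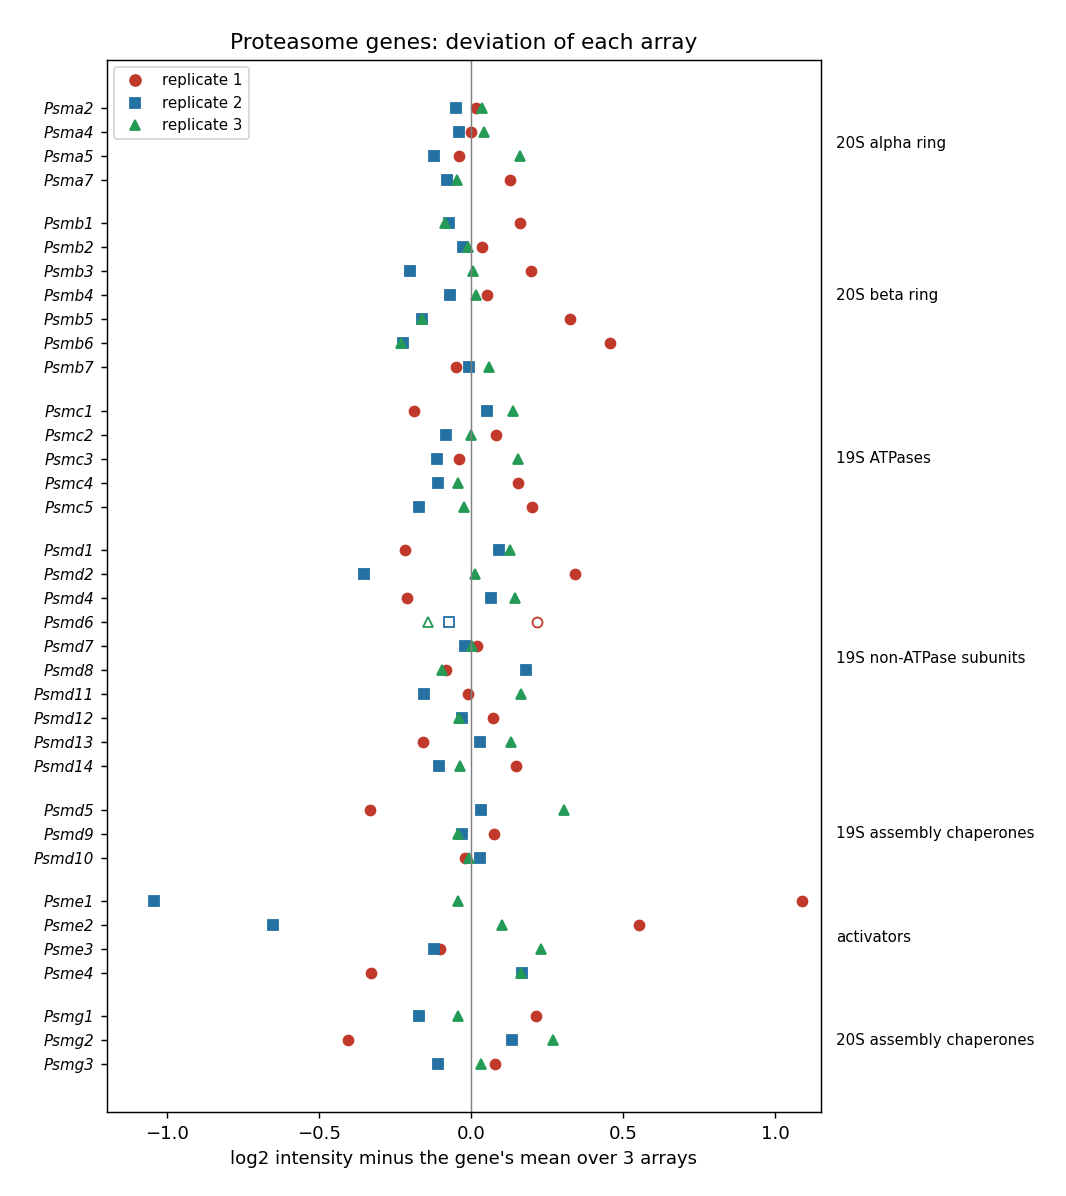
Each array's log2 intensity minus the gene's mean over the 3 arrays (horizontal axis) for the 36 proteasome genes, by subgroup (rows), with circles, squares and triangles for replicates 1, 2 and 3 and open symbols for Psmd6, which was not detected on all arrays. Most symbols lie within 0.4 of 0, and Psme1 and Psme2 spread from below −0.6 to above 0.5.

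The core was set against the regulatory particle through each array's deviation from the gene's own mean, which does not compare brightness between probes. On replicate 1 the median deviation was 0.05 for 11 core genes and 0.00 for 14 regulatory particle genes. On replicate 2 it was −0.07 and −0.06, and on replicate 3 it was 0.01 for each. The difference between core and regulatory particle was 0.05, −0.02 and −1.78e-05 log2 units on replicates 1, 2 and 3. On replicate 2 all 11 core genes were below their own mean, and so were 9 of 14 regulatory particle genes (64.3%), against 50.3% of all detected genes. The sizes were small: the core genes lay between −0.23 and −0.01 on that array. Replicate 2 was the lowest array for 21 of the 35 proteasome genes (60.0%), against 26.0% of all detected genes, and their median distance from the mean of the other arrays was −0.17. Without normalisation between arrays 9 of 35 were lowest on replicate 2, against 14.4% of all detected genes. Replicate 1 was the highest array for 19 of the 35 (against 43.3% of all detected genes) and the lowest for 9 (against 43.4%). With 1 group of 3 arrays, no test of a difference between arrays or particles is possible.

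**Figure D3:**
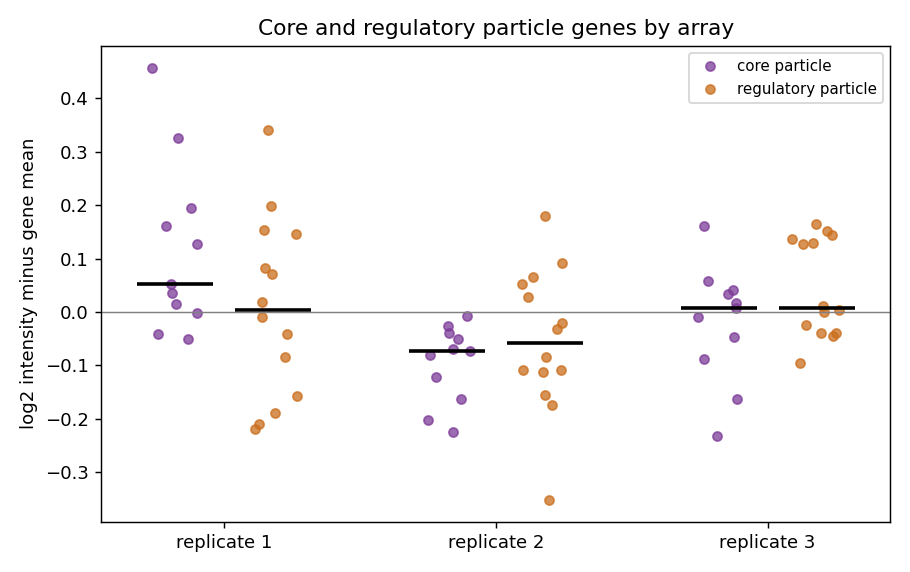
Deviation of each detected gene from its mean over arrays (vertical axis, log2 units) on replicates 1, 2 and 3, for 11 core particle genes and 14 regulatory particle genes, with black bars at the medians and points spread sideways for legibility. All core points on replicate 2 are below 0, and on every array the core and regulatory medians are within 0.05 of each other.

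Of the activators, Psme1 and Psme2 spanned over 2-fold between arrays, and Psme3 and Psme4 did not. Psme1, the alpha subunit of the activator PA28, was at 12.48, 10.35 and 11.35 on replicates 1, 2 and 3 (11.39 ± 1.07, SD, n = 3) with its brighter probe (ILMN_2986309). Replicate 1 was 4.38-fold above replicate 2 and 2.19-fold above replicate 3. The other Psme1 probe (ILMN_2671204) gave 12.04, 9.85 and 10.70, the same order and nearly the same range (2.19 against 2.13). Psme2, the beta subunit of the same ring, was at 10.07, 8.87 and 9.63 (9.52 ± 0.61, SD, n = 3) with its only probe (ILMN_2731057), so replicate 1 was 2.30-fold above replicate 2. For both genes replicate 1 was highest and replicate 2 lowest, an order combined with a range over 1 in 1.38% of all detected genes. Both genes were singled out by their range, so that share does not tell how rare the order is. Of the 805 detected genes with a range over 1, 110 had this order. Of all detected genes 19.2% had it. Whether the Psme2 probe also reads transcripts of the gene annotated as Psme2b was not tested.

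The nuclear activator Psme3 was at 9.39, 9.37 and 9.72 (9.49 ± 0.20, SD, n = 3), with replicate 3 the highest by a small amount. Psme4, which encodes the large single-chain activator PA200, was at 11.03, 11.53 and 11.52 (11.36 ± 0.29, SD, n = 3). Replicate 1 was its lowest array, against its position in Psme1 and Psme2. Without replicate 1, Psme1 remained over 2-fold (a range of 1.04 between replicates 2 and 3) and Psme2 did not (0.76). Without replicate 2, the ranges were 1.14 and 0.45. The size for Psme2 therefore rests on replicates 1 and 2 together.

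**Figure D4:**
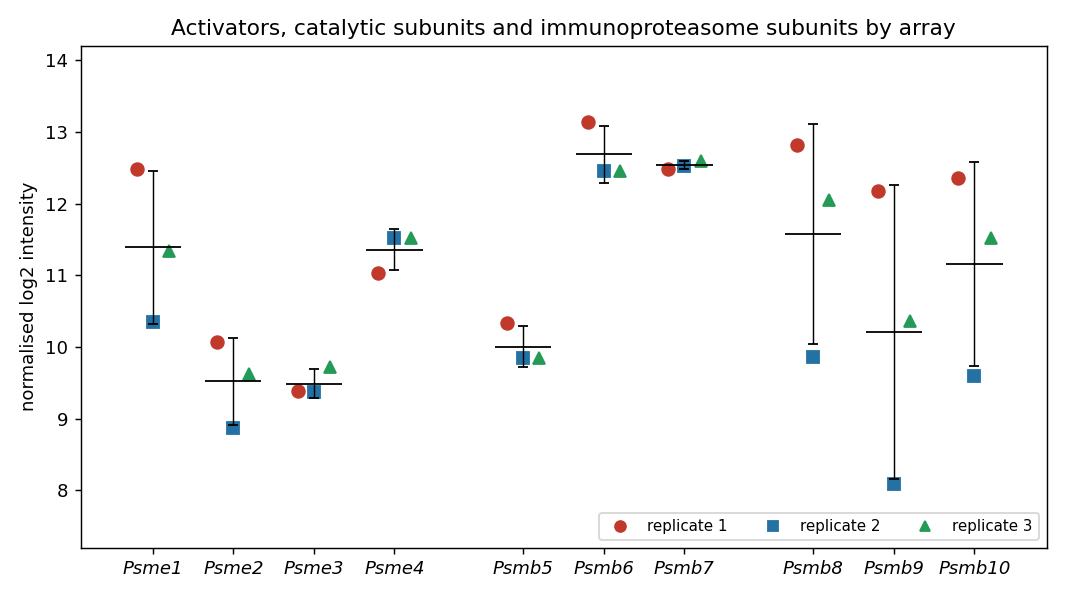
Normalised log2 intensity (vertical axis) on replicates 1, 2 and 3 of the 4 activator genes, the 3 cutting subunit genes and the 3 immunoproteasome genes, with horizontal bars at the mean and error bars of 1 SD over 3 arrays. Psme1, Psme2, Psmb8, Psmb9 and Psmb10 share replicate 1 as highest and replicate 2 as lowest array. Levels of different genes are not comparable.

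The immunoproteasome genes, outside the group by definition, varied in the same order: Psmb8 at 12.82, 9.86 and 12.04, Psmb9 at 12.18, 8.09 and 10.36, and Psmb10 at 12.36, 9.59 and 11.52. Their ranges, 2.97, 4.09 and 2.77, were wider than those of Psme1 and Psme2. The replaced subunits Psmb5 and Psmb6 were highest on replicate 1 too, by less than 1 log2 unit, and Psmb7 was not. In a list of 21 interferon-inducible antigen processing genes that includes these 3, 18 had a named probe and 16 were detected. All 16 were highest on replicate 1 and lowest on replicate 2, an order found in 19.2% of all detected genes. The list was chosen with earlier results of these data known, so this contrast is a description only. Of the 16, 14 spanned over 2-fold, against 10.1% of all detected genes, the others being B2m and Irgm1. The list's summed intensity was 88326, 25327 and 49115 on replicates 1, 2 and 3, while that of Psme1 and Psme2 was 6777, 1770 and 3393. Irf1, a transcription factor of the interferon response, was at 12.44, 10.13 and 11.61. These genes moved with Psme1 and Psme2 across the 3 arrays, and their part in the result was not tested. Fibroblast markers went both ways: of the 7 detected, 3 were highest on replicate 1 and 3 lowest there. Pdgfra and Dcn were highest on replicate 1 but lowest on replicate 3, and Thy1, S100a4 and Vim were lowest on replicate 1. The part of fibroblasts was not tested either.

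Assembly factors differed among themselves. Psmg1, which pairs with the product of Psmg2 to assemble the alpha ring, was at 9.44, 9.05 and 9.18, and Psmg3, a member of the other assembly pair, at 9.17, 8.98 and 9.12. Both were lowest on replicate 2. Psmg2 was at 9.48, 10.02 and 10.15 (9.88 ± 0.36, SD, n = 3) and lowest on replicate 1. Its other 2 probes were also lowest there but nearly flat, with ranges of 0.10 and 0.05, so the size for Psmg2 depends on the probe. Pomp, the maturation factor that joins half-barrels and lies outside the symbol pattern, was at 12.36, 12.11 and 12.43.

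Of the chaperones of the regulatory particle base, Psmd5 had the widest range, at 7.995, 8.360 and 8.634 (8.33 ± 0.32, SD, n = 3), and was lowest on replicate 1. Psmd10, also known as the oncoprotein gankyrin, had the narrowest, at 9.81, 9.86 and 9.82 (0.05). Its dimmer probes had ranges of 0.15 and 0.27, with replicates 1 and 3 at opposite ends. Psmd9 was at 7.56, 7.45 and 7.44. The arrays thus did not share an order across these 3 genes.

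Agreement between probes was partial, and it was not set against that of all genes with several probes. Of 15 proteasome genes with several probes, all probes of a gene had the same lowest array in 9, and the same highest array in 9. Psme1, Psmd2, Psmd9, Psmd12, Psmc5, Psmb2 and Psmg2 had both in common. The remaining 21 genes had 1 probe and no such check.

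Regulators and partners of the proteasome were mostly steady as well. Of 31 genes listed for this purpose, 17 had a named probe, all 17 were detected and 1 spanned over 2-fold, with a median SD of 0.10. Of all genes with a named probe 82.2% were detected, and of those 10.1% spanned over 2-fold, with a median SD of 0.214. The listed gene over 2-fold was Ufd1, a cofactor that helps the unfoldase VCP extract ubiquitinated proteins, at 6.62, 7.68 and 7.69. Vcp itself was at 12.79, 12.90 and 12.86. Nfe2l1, the transcription factor that raises proteasome genes when degradation is impaired, was at 10.70, 10.73 and 10.58 (10.67 ± 0.08, SD, n = 3). Sem1, the smallest subunit of the lid, was at 11.93, 11.59 and 11.51. The deubiquitinases that bind the regulatory particle, Usp14 and Uchl5, were at 6.02, 6.39 and 6.59, and at 9.80, 9.97 and 9.95. Ecpas, which tethers the core to the cap, was at 8.30, 8.46 and 8.35. The 14 genes with no named probe include Adrm1 and Uba1.

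Both genes that only share the prefix were detected and highest on replicate 1. Psmc3ip was at 10.59, 9.75 and 9.90 (10.08 ± 0.45, SD, n = 3), and Psme3ip1 at 9.93, 9.30 and 9.44, with the same order on its second probe. Neither spanned 2-fold.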

How the data were processed

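Total RNA was labelled with the MessageAmp kit, per the labels' protocols. The deposited unprocessed table holds a linear intensity and a detection p-value for every probe, per the file headers, with no background subtraction or normalisation. The authors' processed table holds log2 intensities of 17754 of 45281 probes; its columns have the same sorted values to within 0.00036, which is quantile normalisation. Limma is named per the submitters' processing notes.

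Values were computed with neqc in limma 3.58.1 (R 4.3.3; offset 16, controls inferred from detection p-values), for arrays taken as 3 replicates of 1 group. Names came from the platform annotation: 15045 probes had 1 gene, and the other 2709 were not analysed by gene. All 38 members matched RefSeq by Entrez identifier. A gene's level is that of its probe with the highest mean. No test between groups was possible, and the number of arrays limits the precision. Every member is accounted for. Values on every array were given for the cutting subunits, activators, assembly factors, undetected members, those over 2-fold, and the widest and narrowest of each subgroup; others given, and the promoter motifs, were chosen after their values were seen. The members and lists were chosen with earlier results of these data known. Summaries used Python 3.11.15 and pandas 2.3.3, tested on simulated data. The alternatives were other detection rules, background corrections, normalisations, probe rules and offsets, and each replicate left out.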

Additional observations from a re-analysis of the deposited data

How the results depend on the processing

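No paired analysis was possible because there is 1 group. The count of detected proteasome genes was 33 to 36 under all detection rules tried and 35 with each replicate left out in turn. Psme1 and Psme2 were over 2-fold under every other normalisation, offset, filter and probe rule tried, joined by Psmd2 without normalisation between arrays (range of Psme1 2.34, of Psme2 1.51). Leaving out replicates gave 1 to 2 genes over 2-fold and a median SD of 0.0572 to 0.161. The lowest of each came without replicate 1; without replicate 2 there was also 1 gene. Without normalisation between arrays the median SD was 0.239 (0.309 for all detected genes), the array shifts of all genes were 0.26, −0.04 and −0.22, and 9 genes rather than 21 were lowest on replicate 2; these values include the array shifts. All 11 core genes were below their mean on replicate 2 under the 6 alternatives that keep 3 arrays. The core minus regulatory particle difference lay between −0.01 and 0.09 on replicate 1, −0.02 and 0.01 on replicate 2, and −0.08 and 0.00 on replicate 3, changing sign between settings on each. Dim probes limit Psmd6 and Psmd2.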
